A study of Homo sapiens with 4 samples.

Results

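The genes described here are 34 genes of the G1/S transition and of DNA replication, measured in the human osteosarcoma line U2OS. They were taken by name from a list whose rule uses no measured value, though the list was drawn up with earlier results of these data known, and all 34 were found among the 58676 Ensembl gene identifiers of the deposited count table. The tested cells had been given a single-domain antibody (sdAb) against MN1 and make up 2 RNA sequencing libraries. The comparison cells had been given a control sdAb and make up the other 2 libraries. Both kinds of cells grew in DMEM with fetal bovine serum and antibiotics. MN1 is a transcriptional coregulator. The labels give no dose, exposure time or route for either antibody, and do not say whether replicate libraries were grown separately, so the p-values measure a spread between libraries that may be technical.

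Cells copy their DNA once per cycle. In G1, the origin recognition complex, CDC6 and CDT1 load the ring of MCM2 to MCM7 on origins, a step called licensing. At the start of S phase, cyclin E kinase activity and E2F transcription factors are high, CDC45 and the GINS complex join the ring to form the active helicase, and the polymerases, the sliding clamp PCNA and its loader RFC copy the strands with deoxynucleotides made by ribonucleotide reductase, thymidylate synthase and thymidine kinase. Most of these genes are E2F targets whose transcripts peak around the G1/S transition, so their levels follow how many cells of a culture are in that part of the cycle. In bulk libraries such as these, a change in the share of cells at G1/S and a change in transcript per cell cannot be told apart.

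The anti-MN1 libraries held 16075169 and 15970324 counts and the control libraries 15740268 and 16816893. Levels are given as CPM, read counts relative to library size, with TMM scaling factors. Fold changes are anti-MN1 over control on the log2 scale, with standard errors (SE). Every adjusted p is from the quasi-likelihood test of edgeR unless another tool is named, adjusted by Benjamini-Hochberg over the 17524 genes that passed the low-count filter, and genes called higher or lower passed 0.05. As for the label of the cells, the osteoblast-lineage markers RUNX2, COL1A1 and SPARC were detected while SP7 and IBSP had no count in any library. The 10 markers of that list summed to 315 and 317 CPM in the anti-MN1 libraries and 811 and 802 CPM in the control libraries. COL1A1 and SPARC held most of that sum. Of the 6 markers of that list that were tested, 4 had a negative and 2 a positive log2 fold change. The 7 epithelial markers summed to 35.8 and 35.7 CPM with the anti-MN1 sdAb against 23.4 and 28.7 CPM with the control sdAb. Most of this was CLDN4, with 30.4 and 31.1 CPM against 18.1 and 20.3 CPM. Of the 5 epithelial markers tested, 2 had a positive and 3 a negative log2 fold change. CLDN4 was called higher, at 0.68, and CDH1 lower. The call of CDH1 rests on few reads, 5 and 6 counts in the anti-MN1 libraries and 10 and 27 in the control libraries. The 6 endothelial markers summed to 6.33 and 6.65 CPM against 9.80 and 8.68 CPM. The 9 blood markers summed to 1.29 to 2.03 CPM in all libraries. Mitochondrial genes took 3.40% and 3.49% of the counts of the anti-MN1 libraries and 4.45% and 4.31% of those of the control libraries. The part of these differences in the results that follow was not tested.

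The replication genes stayed close to their control levels. Of the 34 genes, all of which passed the filter, 9 were higher and 7 lower with the anti-MN1 sdAb. Over all genes tested, 23.2% were higher and 20.9% lower, and 44.1% were called in either direction. The share called among the replication genes was 47.1%, near that background. Among the 8541 genes tested within the same range of mean level, 16.3 to 444 CPM, 56.8% were called, with 37.3% higher and 19.5% lower. The libraries of the 2 groups did not overlap in 12 genes that lay above and 13 that lay below the controls, against 35.3% of all genes tested above, 35.4% below and 70.7% in either direction.

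The size of the changes was small throughout. No gene of the 34 reached a change of 1.5-fold, whereas 23.1% of all genes tested did, and 8.71% of those within the same range of level. The called changes ran from 1.07-fold to 1.23-fold higher and from 1.10-fold to 1.33-fold lower. The median log2 fold change was -0.02 over the 34 genes and -0.0038 over all genes tested, and the median size regardless of sign was 0.14 against 0.28. For genes within the same range of level, the median was 0.08 and the median size 0.20. The 95% interval of each of the 34 changes lay inside 1.5-fold in either direction, and reached at most -0.50 and 0.48 on the log2 scale. Such an interval was found for 49.7% of all genes tested and for 82.9% of those within the same range of level. With upper-quartile factors in place of TMM, 33 of the 34 genes had such an interval. For the 18 genes that did not pass, the intervals ran between -0.39 and 0.48, so changes of that size are not shown to be absent.

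**Figure D1:**
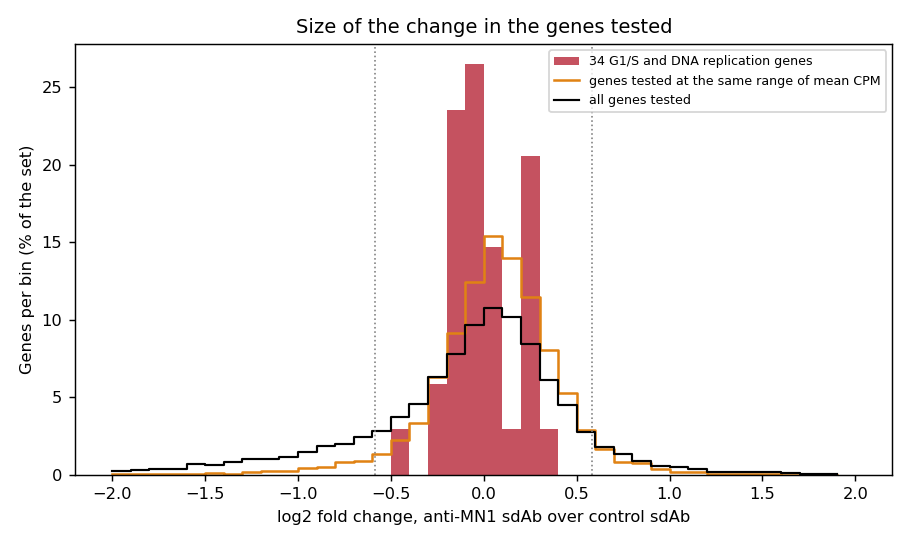
Log2 fold changes, anti-MN1 sdAb over control sdAb, on the horizontal axis, as percent of genes per bin on the vertical axis, for the 34 replication genes (bars), genes tested within the same range of mean CPM (orange line) and all genes tested (black line). Dotted lines mark a change of 1.5-fold, and all 34 genes lie between them.

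Where the balance of higher and lower genes lay depended on the scaling. With upper-quartile factors the log2 fold changes of all genes moved by a median of -0.09, and 7 of the 34 genes were higher and 15 lower in place of 9 and 7. The median of the 34 genes was then -0.11, so the sign of a small median of a role is not fixed. The same counts, 7 and 15, came from library size alone, a shift of -0.08. The called genes over the whole table were 52.7% higher under TMM, 38.2% under upper-quartile factors and 39.2% under library size alone. Against a change of 1.2-fold rather than no change, edgeR called 1 of the 34 genes, TK1. Of the 16 called genes, 11 kept their call under every other alternative run, and these are CDC6, POLA1, RFC3, RRM1, RRM2, CDC25A and CLSPN, which were higher, and POLE, PCNA, TK1 and CCNE1, which were lower.

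**Figure D2:**
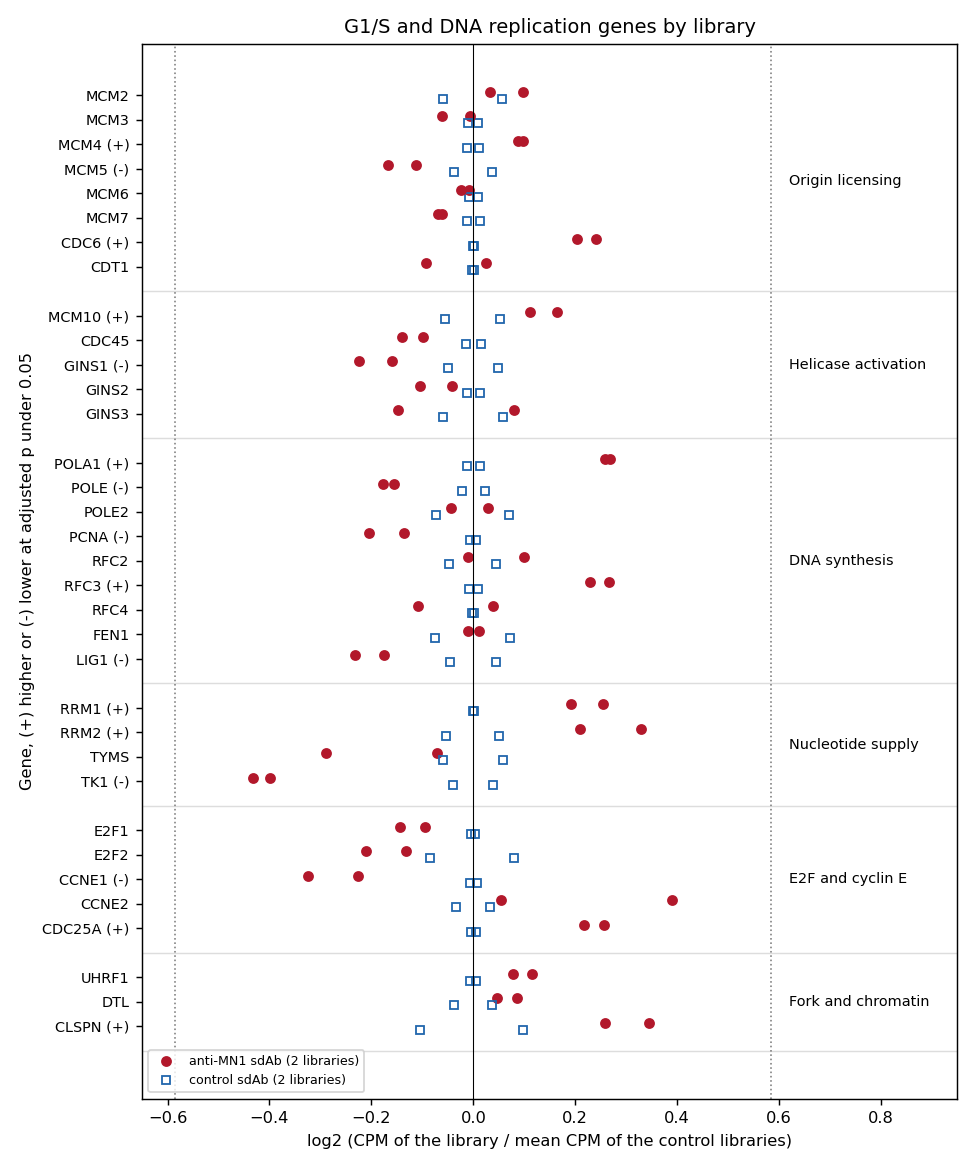
Level of each of the 34 genes in each library, as log2 of its CPM over the mean of the control libraries (horizontal axis), by gene and role (vertical axis). Filled circles are the 2 anti-MN1 libraries and open squares the 2 control libraries, dotted lines mark 1.5-fold, and TK1 lies farthest to the left.

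Since E2F factors drive most of these genes, the letters of the E2F motif were looked for in their promoters, here the 250 bases before the start and 50 from it on, taken from RefSeq (GRCh38.p14). The motif was searched as TTTCCCGC, TTTCGCGC, TTTGCCGC or TTTGGCGC on both strands, with overlapping matches allowed. RefSeq promoters were found for 31 of the 34 genes, all but MCM4, MCM5 and CCNE2, and 22 of the 31, or 71.0%, held at least 1 match. A match was in 3.3% of all 35114 RefSeq promoters and in 5.1% of the 12115 that belong to genes tested here. A match was found in 5 of the 8 promoters of genes called higher, 4 of the 6 of genes called lower and 13 of the 17 of genes that did not pass. Genes that rose and genes that fell thus both had these letters. For both directions, a 60-base stretch is shown for the 3 largest changes among called genes with a match before the RefSeq start, on the strand of the gene, 5′ to 3′, with the matches in capitals.

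POLA1, higher (chrX:24693755-24693814, plus strand): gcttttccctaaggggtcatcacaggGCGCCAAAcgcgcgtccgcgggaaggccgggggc
RFC3, higher (chr13:33818068-33818127, plus strand): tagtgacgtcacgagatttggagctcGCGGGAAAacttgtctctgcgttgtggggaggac
CDC25A, higher (chr3:48188428-48188487, minus strand): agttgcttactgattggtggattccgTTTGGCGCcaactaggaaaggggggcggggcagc
LIG1, lower (chr19:48170425-48170484, minus strand): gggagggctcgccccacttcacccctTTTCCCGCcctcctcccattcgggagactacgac
PCNA, lower (chr20:5126648-5126707, minus strand): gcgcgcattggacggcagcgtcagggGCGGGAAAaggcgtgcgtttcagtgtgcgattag
POLE, lower (chr12:132687343-132687402, minus strand): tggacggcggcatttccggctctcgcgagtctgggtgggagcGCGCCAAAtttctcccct

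Of the 8 genes of origin licensing, 2 were higher, 1 was lower and 5 did not pass, with a median log2 fold change of -0.02. The share called, 37.5%, was near the 44.1% of all genes tested. CDC6, the ATPase that loads the MCM ring (chromosome 17, 40287633 to 40304657, GRCh38), had 233 and 227 CPM in the anti-MN1 libraries against 198 and 197 CPM in the control libraries. Both anti-MN1 values lay above both control values, and the rise was 0.22 ± 0.04 (SE, adjusted p = 1.92e-05). CDT1, its partner in loading, did not pass, at 46.7 and 50.6 CPM with the anti-MN1 sdAb and 49.7 and 49.8 CPM with the control sdAb. The anti-MN1 libraries fell on either side of the controls there, and the change was -0.03 ± 0.07 (SE).

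The ring itself is built of equal parts of MCM2 to MCM7, and the summed level of these 6 genes was 1844 and 1858 CPM in the anti-MN1 libraries against 1882 and 1863 CPM in the control libraries. MCM5 (chromosome 22, 35400063 to 35425430) was the member of the ring that fell, with 234 and 243 CPM against 269 and 256 CPM, a log2 fold change of -0.14 ± 0.04 (SE, adjusted p = 0.00360). Its groups did not overlap, but the call was lost without control replicate 1 (-0.10, adjusted p = 0.0943) and without anti-MN1 replicate 1 (-0.11, adjusted p = 0.0878). MCM4 rose by 0.09 ± 0.03 (SE, adjusted p = 0.0267), with 377 and 379.6 CPM in the anti-MN1 libraries against 352 and 357 CPM in the control libraries. The call of MCM4 was lost without control replicate 1, anti-MN1 replicate 1 or anti-MN1 replicate 2, where the rise was 0.08, 0.11 and 0.10. It was also lost with DESeq2 (adjusted p = 0.0951) and with a minimum count of 50, where the rise was 0.06 (adjusted p = 0.145). With upper-quartile factors and library size only MCM4 was at 0.0072 and 0.013, and not called.

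The other 4 ring genes did not pass. MCM7 averaged 433 ± 1.44 CPM with the anti-MN1 sdAb and 454 ± 5.47 CPM with the control sdAb, MCM3 347 ± 9.47 and 355 ± 3.31 CPM, MCM6 222 ± 1.58 and 225 ± 2.04 CPM, and MCM2 232 ± 7.47 and 221 ± 12.6 CPM (SD, n = 2 per group). Their log2 fold changes ran from -0.07 for MCM7 to 0.07 for MCM2, and that of MCM2 turned to -0.019 with upper-quartile factors and passed at 0.13 without control replicate 1 (adjusted p = 0.0406). MCM3, MCM6 and MCM7 were called lower with upper-quartile factors, at -0.12, -0.10 and -0.15. With library size only they were called lower too, at -0.11, -0.10 and -0.15. MCM7 was also called lower with a minimum count of 50, at -0.10. Per kilobase of annotated exon, the ring genes spanned 32.5 to 98.8 CPM per kb in the anti-MN1 libraries and 35.8 to 103 CPM per kb in the control libraries, with MCM5 lowest and MCM7 highest in both groups. The exon length used joins all annotated transcripts, 7338 bases for MCM5 and 4386 for MCM7, so a gene with rarely used exons reads low on this scale. Of the exonic bases of MCM2, 23.6% are overlapped by genes on the opposite strand, and since the strand setting of the counting is not given, its level is uncertain.

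Among the 5 genes that turn the loaded ring into a running helicase, 1 was higher, 1 was lower and the median was -0.07. The share called was 40%, near the 44.1% of all genes tested. MCM10, a factor needed to start unwinding, had 102 and 98.2 CPM in the anti-MN1 libraries and 94.4 and 87.6 CPM in the control libraries, a rise of 0.14 ± 0.05 (SE, adjusted p = 0.0337). GINS1, a subunit of the GINS complex, had 42.4 and 44.4 CPM against 47.9 and 51.2 CPM in the control libraries, a fall of 0.19 on the log2 scale (SE 0.07, adjusted p = 0.0307). The groups of both genes did not overlap, but neither call held in every alternative. The rise of MCM10 was lost without control replicate 2 (adjusted p = 0.317), without anti-MN1 replicate 1 (adjusted p = 0.175) and with DESeq2 (adjusted p = 0.176). It was also lost with a minimum count of 50 (adjusted p = 0.0938), and with upper-quartile factors or library size only, where the change was 0.05 and 0.06 (adjusted p = 0.448 and 0.388). For GINS1 the call went without control replicate 2 (-0.14), anti-MN1 replicate 1 (-0.15) or anti-MN1 replicate 2 (-0.22). It also went with DESeq2 (adjusted p = 0.152) and with no filter (adjusted p = 0.0824).

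The helicase partner CDC45 had 87.1 and 84.6 CPM with the anti-MN1 sdAb, below the 94.2 and 92.3 CPM of the control libraries, and missed the threshold (-0.12 ± 0.05 SE, adjusted p = 0.0666). It was called lower with upper-quartile factors (-0.20), library size only (-0.20) and a minimum count of 50 (-0.15). GINS2 and GINS3 did not pass, at -0.07 ± 0.06 and -0.03 ± 0.10 (SE), and the GINS3 libraries of the 2 groups overlapped. GINS2 was called lower with upper-quartile factors (-0.16) and library size only (-0.15). The remaining GINS subunit gene, GINS4, had 45.0 and 46.7 CPM against 47.0 and 54.9 CPM in the control libraries (-0.15 ± 0.08 SE, adjusted p = 0.102). Without control replicate 1 it was at -0.26. GINS4 was called lower with upper-quartile factors (-0.24, adjusted p = 0.0105), library size only (-0.23, adjusted p = 0.00985) and a minimum count of 50 (-0.19, adjusted p = 0.0337). Opposite-strand genes overlap 23.6% of the exonic bases of GINS4 and 10.9% of those of GINS3.

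In the synthesis machinery the called genes were split by direction, with 2 of 9 genes higher, 3 lower and a median of -0.01. These are 22.2% higher and 33.3% lower, against 23.2% and 20.9% of all genes tested. The share called in either direction was 55.6%, against 44.1% of all genes tested. Among genes tested within the range of mean level of the whole replication set it was 56.8%. POLA1, the catalytic subunit of the polymerase that makes primers (chromosome X, 24693919 to 24996986), had 126 and 127 CPM with the anti-MN1 sdAb and 107 and 105 CPM with the control sdAb. Replicates were close, the groups did not overlap and the rise was 0.26 ± 0.05 (SE, adjusted p = 2.79e-05). POLE, the catalytic subunit of the leading-strand polymerase (chromosome 12, 132623753 to 132687365), went the other way, with 188 and 185 CPM against 213 and 206 CPM. It fell by 0.17 on the log2 scale (SE 0.04, adjusted p = 0.000913). POLE2, a non-catalytic subunit of the same enzyme, averaged 37.8 ± 1.33 CPM with the anti-MN1 sdAb and 38.0 ± 2.66 CPM with the control sdAb (SD, n = 2 per group), a change of -0.01 ± 0.08 (SE) with overlapping libraries.

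The clamp gene and a clamp loader gene moved in opposite directions. PCNA, the sliding clamp (chromosome 20, 5114953 to 5126626), had 216 and 206 CPM in the anti-MN1 libraries and 237 and 238 CPM in the control libraries, a fall of 0.17 (SE 0.04, adjusted p = 0.000593). RFC3, a subunit of the clamp loader (chromosome 13, 33818049 to 33966558), had 103 and 100.1 CPM against 85.9 and 84.9 CPM, a rise of 0.25 ± 0.05 (SE, adjusted p = 0.000208). The loader genes RFC2, RFC4 and RFC5 did not pass, at 0.04 ± 0.06, -0.03 ± 0.06 and -0.02 ± 0.07 (SE), and RFC2 turned to -0.040 with upper-quartile factors.

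LIG1, the ligase that joins Okazaki fragments (chromosome 19, 48115445 to 48170603), had 95.2 and 91.5 CPM in the anti-MN1 libraries against 111 and 104 CPM in the control libraries. The groups were apart and the fall was 0.20 (SE 0.05, adjusted p = 0.00173), but it was lost without control replicate 1 (-0.15, adjusted p = 0.0627). FEN1, the nuclease that trims the same fragments, was the closest of the 34 genes to no change, at 188 and 186 CPM with the anti-MN1 sdAb and 177 and 197 CPM with the control sdAb (0.00 ± 0.04 SE, adjusted p = 0.993).

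Nucleotide supply held the gene with the largest change of the 34. TK1, the cytosolic thymidine kinase that salvages thymidine in S phase (chromosome 17, 78174075 to 78187233), had 146 and 150.0 CPM in the anti-MN1 libraries and 203 and 192 CPM in the control libraries. Both anti-MN1 libraries lay well below both controls, and TK1 fell by 0.42 on the log2 scale (SE 0.04, adjusted p = 1.72e-09). It ranked 726 of 17524 genes by p and kept its call in each of the 15 alternatives, with log2 fold changes from -0.50 to -0.37.

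Both subunits of ribonucleotide reductase, the enzyme that makes deoxynucleotides from ribonucleotides, rose. RRM1, the large catalytic subunit (chromosome 11, 4094707 to 4138876), had 267 and 279 CPM against 234 and 234 CPM in the control libraries, a rise of 0.22 ± 0.04 (SE, adjusted p = 1.10e-05). RRM2, the small subunit used in S phase (chromosome 2, 10120698 to 10131419), had 161 and 175 CPM against 144 and 134 CPM, a rise of 0.27 ± 0.05 (SE, adjusted p = 1.86e-05). Of its 50-base sequence windows 29.6% occur in other genes, mostly in an overlapping gene on the same strand, so part of its reads may be lost or shared. RRM2B, the p53-induced small subunit, did not pass at 115 and 119.8 CPM against 119 and 129.9 CPM (-0.08 ± 0.05 SE, adjusted p = 0.194). It was called lower with upper-quartile factors (-0.17), library size only (-0.16) and a minimum count of 50 (-0.12).

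TYMS, thymidylate synthase, had 21.5 and 18.5 CPM in the anti-MN1 libraries and 21.7 and 23.5 CPM in the control libraries and did not pass (-0.18 ± 0.11 SE, adjusted p = 0.179). It was called lower with upper-quartile factors (-0.26) and library size only (-0.26), and 46.6% of its exonic bases are overlapped on the opposite strand. TK2, the mitochondrial thymidine kinase, had a low level and fell by 0.39 (SE 0.12, adjusted p = 0.00956), with 12.4 and 11.9 CPM against 16.4 and 15.5 CPM. The call of TK2 was lost without control replicate 1 (adjusted p = 0.0843), without anti-MN1 replicate 2 (adjusted p = 0.0511) and with DESeq2 (adjusted p = 0.0880).

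Of 18 other nucleotide genes, 8 were higher and 3 lower, with a median log2 fold change of 0.11. These are 44.4% higher and 16.7% lower, against 23.2% and 20.9% of all genes tested and 37.3% and 19.5% of those at the level of the 34 genes. SAMHD1, which breaks down deoxynucleotides and restricts viruses, had 65.6 and 62.6 CPM in the anti-MN1 libraries and 41.4 and 40.8 CPM in the control libraries, a rise of 0.64 ± 0.07 (SE, adjusted p = 3.95e-09). It was the 1 gene of 119 tested other replication genes to exceed 1.5-fold. CTPS1, the CTP synthase, had 351 and 365 CPM against 256 and 250.3 CPM (0.50 ± 0.04 SE, adjusted p = 8.50e-13). The uridine-cytidine kinase gene UCK2 rose by 0.46 ± 0.06 and the pyrimidine nucleotide kinase gene CMPK1 by 0.29 ± 0.04 (SE).

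**Figure D3:**
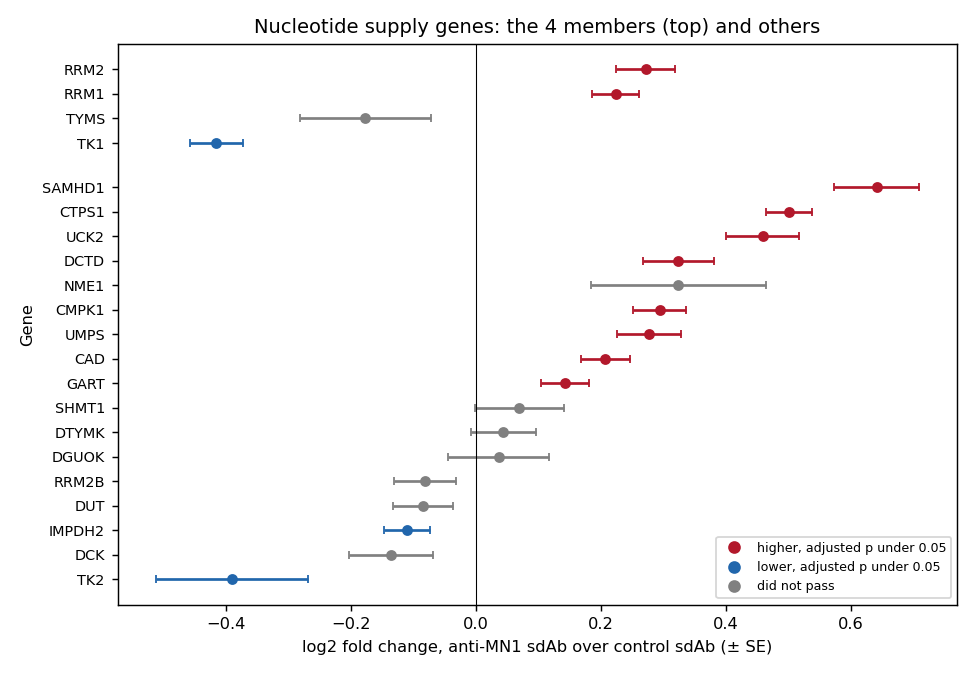
Log2 fold change, anti-MN1 sdAb over control sdAb, with its SE (horizontal axis) for the 4 nucleotide supply genes of the set (top block) and 17 of 18 others (lower block), coloured by call. RRM1, RRM2, SAMHD1, CTPS1 and UCK2 lie to the right of 0, and TK1 and TK2 to the left.

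Called E2F and cyclin E genes lay in both directions, with 1 of 5 higher and 1 lower and a median of -0.12. The share called was 40%, near the 44.1% of all genes tested. CCNE1, cyclin E1, which activates CDK2 at the G1/S transition (chromosome 19, 29811898 to 29824308), had 58.2 and 62.3 CPM in the anti-MN1 libraries and 72.6 and 73.2 CPM in the control libraries. The groups did not overlap, and CCNE1 fell by 0.28 (SE 0.06, adjusted p = 0.000447). CDC25A, the phosphatase that removes inhibitory phosphates from CDK2 (chromosome 3, 48157146 to 48188402), had 75.02 and 73.1 CPM against 63.0 and 62.6 CPM, a rise of 0.24 ± 0.06 (SE, adjusted p = 0.00152). CCNE2, cyclin E2, was uneven between the anti-MN1 libraries, at 19.6 and 15.6 CPM against 14.6 and 15.3 CPM (0.23 ± 0.12 SE, adjusted p = 0.125). It passed without anti-MN1 replicate 2, at 0.40 (adjusted p = 0.0132), and 37.1% of its exonic bases are overlapped on the opposite strand.

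E2F1, an activating E2F factor, had 55.5 and 53.6 CPM in the anti-MN1 libraries, below the 59.4 and 59.1 CPM of the controls, and missed the threshold (-0.12 ± 0.06 SE, adjusted p = 0.142). E2F2, its close relative, had 40.8 and 38.7 CPM against 47.3 and 42.2 CPM (-0.17 ± 0.08 SE, adjusted p = 0.0785), and passed without control replicate 2 at -0.25 (adjusted p = 0.0309). Both were called lower with upper-quartile factors (-0.20 and -0.25), library size only (-0.20 and -0.25) and a minimum count of 50 (-0.15 and -0.20). Among 24 other genes of this group that were tested, 3 were higher and 4 lower. These are 12.5% and 16.7%, against 23.2% and 20.9% of all genes tested. The E2F partner genes TFDP1 and TFDP2 split, with TFDP1 up by 0.14 ± 0.04 (SE) and TFDP2 down by 0.34 (SE 0.08). TFDP1 was at 0.05 with upper-quartile factors and 0.06 with library size only, and not called in either.

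Of the genes that hold cells back from S phase, CDKN1A, the p21 inhibitor of CDK2 that p53 induces, had 124 and 117 CPM in the anti-MN1 libraries and 144 and 147 CPM in the control libraries, a fall of 0.27 (SE 0.05, adjusted p = 1.41e-05). CDKN1B, the related inhibitor p27, was at 0.03 ± 0.05 (SE, adjusted p = 0.660). RB1, the retinoblastoma protein that holds E2F in check, had 90.1 and 94.2 CPM against 84.3 and 84.6 CPM and missed the threshold (0.13 ± 0.05 SE, adjusted p = 0.0559). Its relative RBL2 fell by 0.21 (SE 0.07, adjusted p = 0.00974), a call lost without control replicate 1 (adjusted p = 0.107), without anti-MN1 replicate 1 (adjusted p = 0.147) and with DESeq2 (adjusted p = 0.0724).

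Of the 3 genes that watch the fork or the new chromatin, 1 was higher, beside 23.2% of all genes tested, and the median was 0.10. CLSPN, claspin, the adaptor through which stalled forks activate the checkpoint kinase CHK1 (chromosome 1, 35720218 to 35769967), had 87.8 and 93.2 CPM in the anti-MN1 libraries and 78.6 and 68.3 CPM in the control libraries. This was the largest rise of the 34 genes, at 0.30 ± 0.06 (SE, adjusted p = 0.000146). UHRF1, which carries DNA methylation through replication, had 173 and 178 CPM against 165 and 163 CPM and missed the threshold (0.10 ± 0.04 SE, adjusted p = 0.0584), with 25.7% of its windows found in other genes. DTL, the substrate receptor that has CDT1 destroyed in S phase, was at 0.07 ± 0.05 (SE, adjusted p = 0.281) and turned to -0.019 with upper-quartile factors.

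Outside the 34, the partners of these roles were read from lists of 120 other replication genes, of which 119 were tested, 37 were higher and 14 lower. These are 31.1% higher and 11.8% lower, against 23.2% and 20.9% of all genes tested, and the share called in either direction, 42.9%, was near the 44.1% of all genes. Their median log2 fold change was 0.04, and with upper-quartile factors 18 were higher and 27 lower. In the licensing list 7 of 11 genes, or 63.6%, were higher and 0 lower, beside 23.2% higher over all genes tested and 37.3% of those at the level of the 34 genes. GMNN, geminin, the inhibitor of CDT1, had 81.2 and 84.2 CPM against 62.2 and 63.3 CPM (0.40 ± 0.06 SE, adjusted p = 1.36e-06). The origin recognition genes ORC3 and ORC1 rose by 0.32 ± 0.07 and 0.22 ± 0.06 and the MCM-binding gene MCMBP by 0.20 ± 0.05 (SE). The call of ORC1 was lost without control replicate 2 (adjusted p = 0.0893) or anti-MN1 replicate 2 (adjusted p = 0.0984), and that of MCMBP without control replicate 1 (adjusted p = 0.0946) or anti-MN1 replicate 1 (adjusted p = 0.188). With upper-quartile factors ORC1 was at 0.13 (adjusted p = 0.103) and MCMBP at 0.11 (adjusted p = 0.0810), and neither was called then or with library size only (adjusted p = 0.0808 for ORC1 and 0.0541 for MCMBP). ORC1 was not called by DESeq2 either (adjusted p = 0.0622).

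The fork protection pair TIMELESS and TIPIN, whose proteins bind each other, went opposite ways. TIPIN had 43.6 and 38.4 CPM in the anti-MN1 libraries and 27.5 and 27.8 CPM in the control libraries, a rise of 0.57 ± 0.09 (SE, adjusted p = 2.27e-06), with 21.0% of its exonic bases shared with a pseudogene on the same strand. TIMELESS had 146 and 150.2 CPM against 178 and 164 CPM, a fall of 0.21 (SE 0.04, adjusted p = 0.000338). In the same list of 15 helicase-activation genes 3 were higher and 2 lower, or 20% and 13.3%, against 23.2% and 20.9% of all genes tested. The helicase gene RECQL4 fell by 0.25 (SE 0.06) while RIF1 rose by 0.14 ± 0.04 (SE). With upper-quartile factors and with library size only RIF1 was at 0.06 and not called.

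Of 26 other synthesis genes, 8 were higher and 3 lower, or 30.8% and 11.5%, against 23.2% and 20.9% of all genes tested. The share called in either direction, 42.3%, was near the 44.1% of all genes tested. POLE3, a histone-fold subunit of the enzyme whose catalytic gene POLE fell, rose by 0.33 ± 0.05 (SE, adjusted p = 1.06e-06), with 130.5 and 130.1 CPM against 107 and 100.5 CPM. TOP1 rose by 0.27 ± 0.04, POLDIP2 by 0.25 ± 0.04 and RPA1, of the single-strand binding complex, by 0.17 ± 0.04 (SE). With upper-quartile factors RPA1 was at 0.09 and not called. RPA2 and RPA3 of the same complex, named after their values were seen, went opposite ways. RPA2 rose by 0.20 (SE 0.06, adjusted p = 0.0107) and RPA3 fell by 0.22 (SE 0.08, adjusted p = 0.0195). Of 25 other fork and chromatin genes, 8 were higher and 2 lower, or 32% and 8%, beside the same background shares. The histone chaperone genes ASF1A and NASP went opposite ways, at 0.40 ± 0.09 and -0.19 ± 0.03, and SLBP, which binds the stem-loop of histone mRNA, rose by 0.30 ± 0.06 (SE). CUL4A, a scaffold of the ligase that DTL directs, rose by 0.18 ± 0.04 (SE).

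**Figure D4:**
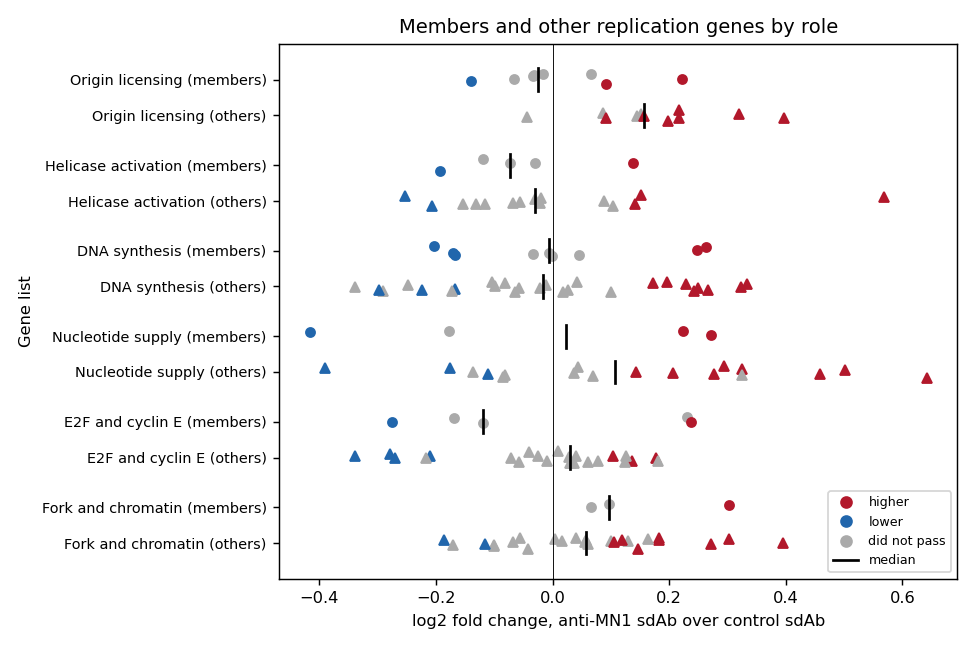
Log2 fold change, anti-MN1 sdAb over control sdAb (horizontal axis), of each tested gene by role (vertical axis), with circles for the 34 genes, triangles for the other replication genes, colour for the call and a black bar for the list median. Medians run from -0.12 for E2F and cyclin E genes of the set to 0.16 for the other licensing genes.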

How the data were processed

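The authors deposited a table of raw read counts per Ensembl gene, 1 column per library, and the whole-number values show no scaling. Bowtie2, HTSeq and the build hg38/GRCh38 are named per the submitters' processing notes. Their versions, the annotation and the strand setting are not given there. Columns were matched to libraries by group initial and replicate number. All 58676 identifiers were in GENCODE release 29 (GRCh38), and 58207 had current symbols. Genes were filtered with filterByExpr (minimum count 10), which kept 99.8% of the counts of each library, scaled by TMM and tested 2-sided with edgeR 4.0.16 in R 4.3.3, with no covariate. A gene with 0 counts may have up to 3, or 0.178 to 0.191 CPM depending on the library, from counting error alone. SE is the log2 fold change over the square root of the F statistic, and the spread was shared across genes (median 28.1 prior degrees of freedom). The scripts were tested on simulated data. Replicates were not the same library deposited again (chi-square over degrees of freedom 1.98 between anti-MN1 and 2.21 between control libraries). Alternatives were other scalings and filters, DESeq2 1.42.0, limma-voom (limma 3.58.1), a test against 1.2-fold, a replicate block, removal of the 20 most abundant genes, each library left out and a robust spread estimate, the last chosen after the data were seen. The genes and lists were chosen with earlier results of these data known. All 34 genes are named, plus at most 4 called genes with the smallest p from each list of other genes and 8 fixed partners and brakes, of which 1 is not reported here though list counts include it.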

Additional observations from a re-analysis of the deposited data

How the results depend on the processing

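The directions of the 16 called replication genes held in all 15 alternatives. Across all genes, 1644 were higher and 2010 lower against a 1.2-fold change, and DESeq2 called 2338 lower. Of the 34 genes, 0 were higher and 1 lower against 1.2-fold (edgeR; with DESeq2 against no change, 7 and 6), and 3 of the 18 genes not called had an unadjusted p under 0.05 against no change. Lower counts were 15 with upper-quartile factors, 15 with library size only and 11 with a minimum count of 50. Of the other replication genes, higher and lower counts were 18 and 27 with upper-quartile factors, 20 and 27 with library size only, 23 and 8 with DESeq2, and 5 and 0 against 1.2-fold. Leaving out each library in turn gave 7 to 9 higher and 5 to 7 lower of the 34 genes, and 28 to 31 higher and 9 to 12 lower of the others, with 9 lower without anti-MN1 replicate 2. The cause was not tested.

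Some genes that did not pass changed sign near 0. With upper-quartile factors and with library size only, MCM2 was at -0.019 and -0.013, RFC2 at -0.040 and -0.035, DTL at -0.019 and -0.014, and CDKN1B at -0.055 and -0.049. CDKN1B was at -0.0034 with a minimum count of 50, POLE2 at 0.0078 and FEN1 at 0.014 with no filter, and FEN1 at 0.00024 with limma-voom. Leaving out each library in turn, MCM3 ran from -0.054 to 0.00062, CDT1 from -0.084 to 0.032, GINS3 from -0.14 to 0.087, POLE2 from -0.076 to 0.070, RFC2 from -0.0020 to 0.11, RFC4 from -0.10 to 0.047, FEN1 from -0.068 to 0.077 and RFC5 from -0.062 to 0.024.

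Same-numbered libraries did not deviate together (correlation of deviations -0.0031). This value cannot tell whether they were prepared together, since a small shared shift could be hidden by the spread between libraries. With the replicate block, 4145 genes were higher and 3742 lower, of the 34 genes 9 and 7, and of the other replication genes 37 and 15, while FEN1 was at 0.0011. The robust spread estimate, chosen after the data were seen, gave 9 and 7 of the 34 genes. Depth limits the less abundant genes most, with an SE of 0.12 for CCNE2 against 0.03 for MCM7.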

Other observations

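Some pyrimidine genes rose and others did not. DUT, DCK and DTYMK, named here after their values were seen, did not pass, at -0.08, -0.14 and 0.04. TYMS did not pass either, and TK1 and TK2 were lower. Beside CTPS1, UCK2 and CMPK1, the risen genes named here after their values were seen are CAD, the first enzyme of the pathway, UMPS, the last enzyme before UMP, and DCTD, the deoxycytidylate deaminase that feeds thymidylate synthase. Genes named here after their values were seen were not followed over the alternatives. CAD had 260 and 263 CPM in the anti-MN1 libraries and 234 and 219 CPM in the control libraries (0.21 ± 0.04 SE, adjusted p = 5.89e-05 in edgeR). UMPS had 102 and 106 CPM against 86.4 and 85.3 CPM (0.28 ± 0.05 SE, adjusted p = 4.64e-05), and DCTD 86.3 and 82.6 CPM against 67.8 and 67.1 CPM (0.32 ± 0.06 SE, adjusted p = 2.33e-05). Of the purine synthesis genes GART and IMPDH2, also named after their values were seen, GART rose by 0.14 ± 0.04 (SE, adjusted p = 0.00326), with 247 and 236 CPM against 223 and 215 CPM. IMPDH2 had 287 and 278 CPM against 299 and 311 CPM, a fall of 0.11 (SE 0.04, adjusted p = 0.0141).

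Other promoter letters were counted in the same windows. The letters CCAAT, on either strand, were in 18 of the 31 promoters, or 58.1%, against 36.1% of the promoters of genes tested. They were in 7 of the 8 promoters of genes called higher, 3 of the 6 of genes called lower and 8 of the 17 of genes that did not pass. The letters TTTGAA or TTCGAA, searched for the cell cycle homology region, were in 2 of the 31, or 6.5%, against 11.5%. These are counts of letters and were not tested.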
